A study of Mus musculus with 12 samples.

Results

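The transcription factors that set the identity of mammary epithelial cells were followed through sorted mouse cells, 10 genes in all: Elf5, Ehf, Elf3, Foxa1, Gata3, Tbx3, Sox9, Trp63, Snai2 and Sox10. They were chosen by name as known lineage regulators from the 53735 gene symbols counted, with earlier results of these data known. All 10 passed the filter on low counts, which left 18236 genes for testing. Live cells of mouse mammary glands had been sorted on CD24 and CD49f into luminal and basal populations and their total RNA was sequenced. The 12 libraries form 4 groups of 3, which are MMTVRANK luminal, WT luminal, MMTVRANK basal and WT basal. MMTVRANK mice carry the receptor Rank under a mouse mammary tumour virus promoter, which is active mainly in mammary and other glandular epithelium, and WT mice are the comparison genotype. The labels used here give no strain, age or treatment for either genotype, nor whether each replicate came from its own mouse; p-values therefore measure the spread between these libraries.

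The mammary gland is a double-layered epithelium of inner luminal cells, which make milk or sense hormones, and outer basal cells, which contract. Lineage factors hold these states by switching on the genes of one layer and silencing those of the other. Elf5 drives milk-producing alveolar cells, Foxa1 and Gata3 open chromatin for the oestrogen receptor in hormone-sensing luminal cells, and Trp63 (p63) maintains the basal layer. Snai2 (Slug) is a repressor of epithelial genes, and Sox9 and Sox10 are linked to progenitor states.

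Library totals lay between 12459500 and 15069600 counts (rounded to 6 digits). The sort was checked on 13 luminal and 13 basal marker genes, whose levels are given as summed CPM (read counts scaled to library size by TMM). The summed luminal markers lay between 8290 and 21871 CPM in the 6 luminal libraries and between 642 and 1039 CPM in the 6 basal ones. The summed basal markers lay between 302 and 874 CPM in luminal libraries and between 25174 and 32761 CPM in basal ones. In both WT libraries numbered 2 the labelled subtype is the opposite of the titled population; marker levels lay with the titles, which were used. Tnfrsf11a, the gene for Rank, stood at 319, 156 and 238 CPM in MMTVRANK luminal and 6.36, 90.8 and 9.91 CPM in WT luminal replicates 1, 2 and 3. In basal libraries it stood at 415, 129 and 218 CPM in MMTVRANK and 73.7, 158 and 65.3 CPM in WT. Both WT libraries numbered 2 were thus far above the other WT libraries of their population, against their genotype label, and are called the libraries labelled WT replicate 2. Leukocyte markers summed to 351 CPM in MMTVRANK luminal replicate 3, where no other luminal library passed 40.9 CPM, and to 187 CPM in MMTVRANK basal replicate 3, where no other basal library passed 54.4 CPM. Fibroblast markers summed to 3285 CPM in WT basal replicate 1, where no other basal library passed 951 CPM.

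Between the populations, most of the 10 factors differed in both genotypes. In MMTVRANK cells 5 factors were higher in luminal cells (Elf5, Ehf, Elf3, Foxa1 and Sox9) and 3 were lower (Trp63, Snai2 and Sox10), at an adjusted p under 0.05 (quasi-likelihood F test of edgeR, adjusted by Benjamini-Hochberg over all genes tested). Of all tested genes 33.2% were called in this comparison, 16.1% higher and 17% lower in luminal cells. In WT cells the same 5 factors and Tbx3 were higher and the same 3 were lower, where 38.1% of all tested genes were called, 18% higher and 20% lower. Gata3 was called in neither genotype. A lower level in a sorted bulk sample cannot be told apart from fewer cells of a type holding the RNA.

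**Figure D1:**
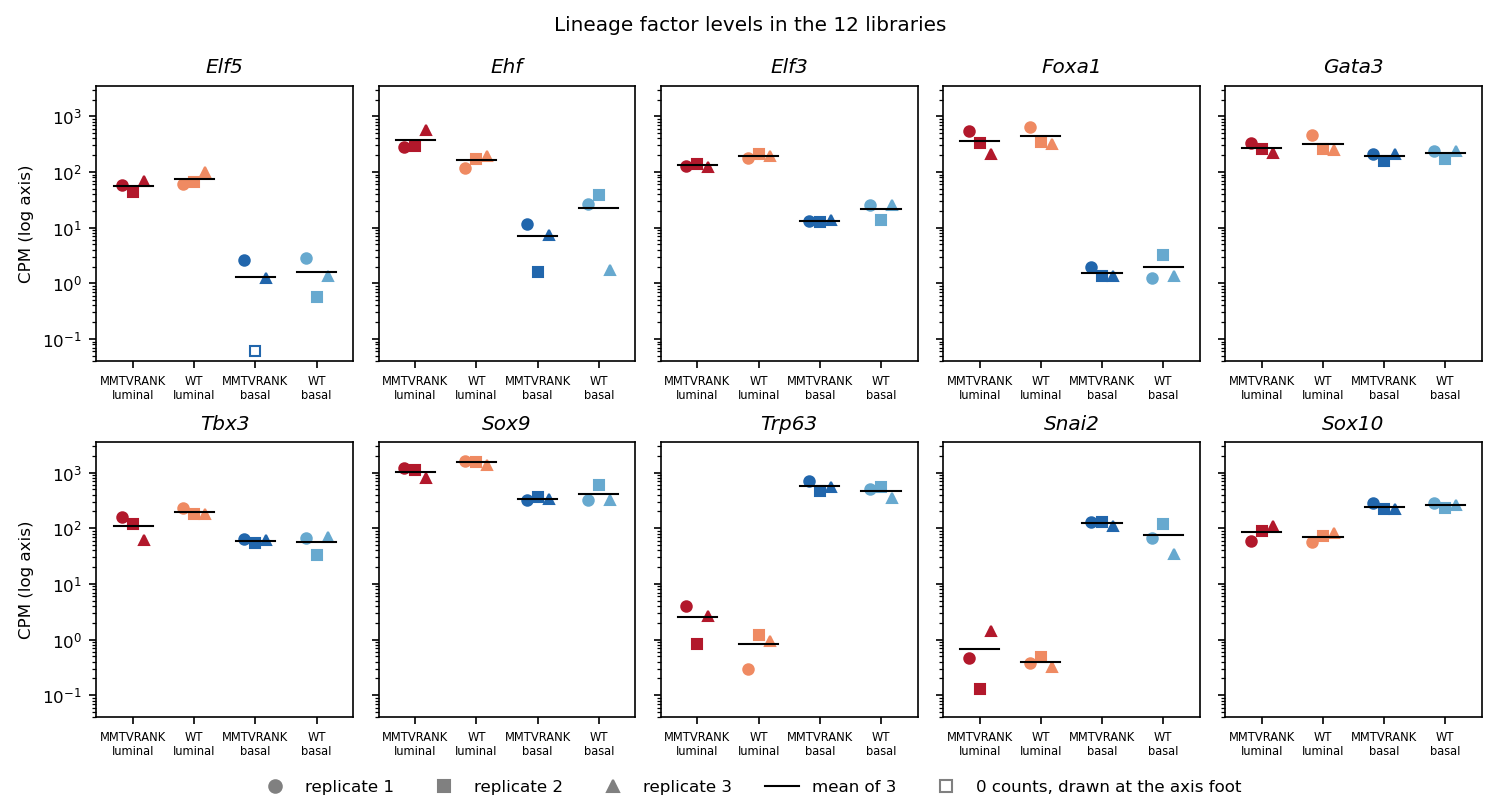
Level of each lineage factor in CPM (log axis) in each library, by group, with marker shapes for replicates 1, 2 and 3 and a black bar for the mean of 3. Trp63 and Snai2 stand at 0.128 to 4.02 CPM in luminal libraries and 34.2 to 704 CPM in basal ones, and the open square marks the library with 0 Elf5 counts.

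Foxa1, a pioneer factor for the oestrogen receptor on the minus strand at chr12:57540628-57546916 (GRCm38.p6), showed the widest split among the luminal factors. It stood at 543, 329 and 207 CPM in MMTVRANK luminal and 634, 348 and 321 CPM in WT luminal libraries, against 1.97, 1.35 and 1.33 CPM in MMTVRANK basal and 1.24, 3.17 and 1.37 CPM in WT basal libraries. The luminal and basal values did not overlap. Its log2 fold change, luminal minus basal, was 7.85 (SE 0.55, adjusted p 1.67e-06) in MMTVRANK and 7.80 (SE 0.54, adjusted p 1.69e-06) in WT cells. Without the library labelled WT basal replicate 2, which held the highest basal level, the WT value was 8.38 with an adjusted p of 4.99e-06.

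Elf5, an ETS family factor of the alveolar lineage, stood at 59.3, 44.2 and 68.0 CPM in MMTVRANK luminal and 60.6, 66.8 and 98.2 CPM in WT luminal libraries. In basal libraries it held 35, 0 and 16 counts in MMTVRANK and 37, 8 and 16 counts in WT, or at most 2.86 CPM; the 0 allows up to 3 counts. The log2 fold change was 5.43 (SE 0.80, adjusted p 0.000387) in MMTVRANK and 5.55 (SE 0.80, adjusted p 0.000303) in WT cells. The low basal counts set this size. Without MMTVRANK basal replicate 1 the MMTVRANK value was 6.46 (adjusted p 0.000788), and without WT basal replicate 1 the WT value was 6.30 (adjusted p 0.000837).

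Elf3, an epithelium-specific ETS factor, varied little between libraries of 1 group in MMTVRANK cells. It stood at 128, 139.6 and 125 CPM in MMTVRANK luminal and 175, 208 and 190.0 CPM in WT luminal libraries, against 13.3, 12.4 and 13.9 CPM in MMTVRANK basal and 25.9, 13.6 and 25.6 CPM in WT basal libraries. The highest library was 1.11 times the lowest in MMTVRANK luminal and 1.12 times in MMTVRANK basal cells. Elf3 shares 162 bp of exon with a clone-named gene on the opposite strand, whose reads cannot be told apart in unstranded counts. The log2 fold change of Elf3 was 3.31 (SE 0.23, adjusted p 8.28e-07) in MMTVRANK and 3.14 (SE 0.22, adjusted p 1.15e-06) in WT cells.

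Ehf, a close relative of Elf3 and Elf5, varied widely between basal libraries. It stood at 276, 289 and 559 CPM in MMTVRANK luminal and 118, 172 and 194 CPM in WT luminal libraries, against 11.7, 1.60 and 7.52 CPM in MMTVRANK basal and 26.4, 38.7 and 1.71 CPM in WT basal libraries. Within WT basal cells the highest library was thus 22.6 times the lowest. In the same 3 libraries the summed luminal markers were 768, 996 and 1039 CPM, to which Cd24a gave 353 CPM on average. Of the luminal claudin genes, Cldn4 ran from 9.24 to 85.6 CPM, Cldn3 from 4.25 to 10.1 CPM and Cldn7 from 2.40 to 3.24 CPM. Of the luminal keratin genes, Krt8 ran from 99.3 to 165 CPM, Krt18 from 74.8 to 107, Krt19 from 26.6 to 40.0 and Krt7 from 11.7 to 23.6 CPM. Of the other luminal markers, Epcam ran from 203 to 284 CPM, Prom1 from 8.64 to 13.4 and Kit from 7.73 to 10.3 CPM. Aldh1a3 ran from 1.44 to 4.87 CPM and Muc1 from 0.864 to 4.96 CPM. These ranges do not show which library held which value. The part of luminal cells in these Ehf levels was not tested. Luminal minus basal, the log2 fold change was 5.74 (SE 0.99, adjusted p 0.00111) in MMTVRANK and 2.85 (SE 0.86, adjusted p 0.0231) in WT cells. The WT call was lost without WT luminal replicate 3 (2.71, adjusted p 0.0517) and without WT basal replicate 1 (3.00, adjusted p 0.0565), and the WT value was 3.52 (adjusted p 0.0231) without the library labelled WT basal replicate 2; the adjusted p of the other alternatives stayed under 0.05. Without MMTVRANK basal replicate 1 the MMTVRANK value was 6.35 (adjusted p 0.00501).

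Elf5 and Ehf are neighbours. In build GRCm38.p6 the deposited table places Elf5 on the plus strand at chr2:103411688-103450989 and Ehf on the minus strand at chr2:103263433-103303278. The gap of 108.41 kb between them holds 3 other genes of the table, none of which passed the filter. Elf3 lies apart, on the minus strand at chr1:135253575-135258568. Both neighbours were higher in luminal cells. In MMTVRANK basal cells both were highest in replicate 1 and lowest in replicate 2, while in WT basal cells Elf5 was highest in replicate 1 and Ehf in the library labelled replicate 2.

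Promoter windows of 4 of the 10 factors (Elf5, Gata3, Foxa1 and Elf3) were found in the RefSeq table for GRCm38.p6, and those of the 3 with the luminal split are printed as the 250 bases before the annotated start, in the direction of the gene. A stretch of 40 bases just after the start was found in a GENCODE transcript of the same gene for each window other than the first of Elf5, which is the one printed. By the gene spans of the deposited table, the Elf5, Foxa1 and Gata3 windows lie inside the gene. The Elf3 window lies partly inside. Capitals mark matches on either strand to 6 short motifs of the members' own families, spelled out after the sequences.
Elf5, chr2:103411848-103412097, plus strand: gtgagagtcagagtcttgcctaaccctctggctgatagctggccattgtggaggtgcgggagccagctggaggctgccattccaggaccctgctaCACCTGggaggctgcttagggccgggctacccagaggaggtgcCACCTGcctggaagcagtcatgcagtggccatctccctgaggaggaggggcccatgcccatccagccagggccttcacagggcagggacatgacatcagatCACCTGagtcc
Foxa1, chr12:57546112-57546361, minus strand: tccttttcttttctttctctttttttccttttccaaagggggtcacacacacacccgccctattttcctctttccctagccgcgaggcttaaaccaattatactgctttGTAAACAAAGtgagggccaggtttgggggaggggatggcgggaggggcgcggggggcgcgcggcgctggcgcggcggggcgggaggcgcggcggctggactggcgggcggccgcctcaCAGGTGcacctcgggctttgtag
Elf3, chr1:135258473-135258722, minus strand: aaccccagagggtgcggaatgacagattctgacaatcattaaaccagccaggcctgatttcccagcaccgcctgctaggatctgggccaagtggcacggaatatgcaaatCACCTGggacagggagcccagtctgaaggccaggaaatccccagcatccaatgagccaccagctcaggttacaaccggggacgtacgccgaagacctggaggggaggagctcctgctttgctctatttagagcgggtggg

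The Snail E-box, searched as CAGGTG, occurs 3 times in the Elf5 window and once each in the Foxa1 and Elf3 windows. Of all 32851 promoter windows of this length 17.2% hold it. The Foxa1 window also holds the forkhead letters TGTTTAC, which 3.17% of all windows hold. That match overlaps one to the SOX letters AACAAAG, held by 5.03% of all windows. A second Elf5 start has its window at chr2:103423818-103424067, with a match to the T-box letters GGTGTGA that 3.33% of all windows hold. The Gata3 window at chr2:9878601-9878850 holds none of the 6 motifs. No window of these 4 genes holds the ETS letters GGAAGT, found in 19.7% of all windows. None holds the GATA letters AGATAA either, found in 9.99% of all windows. The windows hold 21 CpG pairs for Foxa1, 19 for Gata3, 8 for Elf3 and 2 and 8 for the Elf5 starts, where the median of all windows is 6. A match in letters is not a measured binding site, and no binding was measured here.

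Gata3, which maintains differentiated luminal cells, was high in both layers. It lies on the minus strand at chr2:9857078-9890034. It stood at 333, 254 and 219 CPM in MMTVRANK luminal and 460.3, 258 and 249 CPM in WT luminal libraries, against 214, 158 and 207 CPM in MMTVRANK basal and 243, 174 and 242 CPM in WT basal libraries. Luminal libraries lay above basal ones of the same genotype without overlap, by a narrow margin. On the log2 scale the difference was 0.48 (SE 0.25, adjusted p 0.174) in MMTVRANK and 0.55 (SE 0.25, adjusted p 0.106) in WT cells, and with the replicate number as a block the WT value was 0.52 with an adjusted p of 0.0449, where the alternatives ran from 0.0365 to 0.496. A pair of clone-named genes share 155 and 77 bp of exon with Gata3, on the opposite and the same strand, and their reads cannot be told apart in unstranded counts.

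Tbx3, a T-box factor needed for the embryonic mammary gland, stood at 157, 117 and 61.1 CPM in MMTVRANK luminal and 227, 177 and 178 CPM in WT luminal libraries. Basal libraries held 64.0, 54.5 and 60.9 CPM in MMTVRANK and 68.0, 33.5 and 70.6 CPM in WT. In MMTVRANK cells the lowest luminal library, replicate 3, lay among the basal ones, whereas in WT cells the populations did not overlap. The log2 fold change was 1.76 (SE 0.33, adjusted p 0.00145) in WT cells. In MMTVRANK cells it was 0.90 (SE 0.33, adjusted p 0.0523), and 1.20 with an adjusted p of 0.00554 without MMTVRANK luminal replicate 3. The MMTVRANK value was also called with the replicate number as a block (0.86, adjusted p 0.0461) and without the library labelled WT basal replicate 2 (0.90, adjusted p 0.0251), and over all alternatives its adjusted p ran from 0.000619 to 0.236. Tbx3, on the plus strand at chr5:119670669-119684724, shares 115 bp of exon with its antisense gene Tbx3os1, and unstranded counts cannot tell their reads apart.

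Sox9, an HMG-box factor of luminal progenitors on the plus strand at chr11:112782224-112787760, stood at 1201, 1094 and 814 CPM in MMTVRANK luminal and 1603, 1569.7 and 1376 CPM in WT luminal libraries. Basal libraries held 321, 362 and 340.3 CPM in MMTVRANK and 324, 585 and 315 CPM in WT. The library labelled WT basal replicate 2 stood above the other 5 basal libraries, and all luminal libraries stood above it. Luminal minus basal, the log2 fold change was 1.60 (SE 0.24, adjusted p 0.000249) in MMTVRANK and 1.89 (SE 0.24, adjusted p 7.33e-05) in WT cells.

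Trp63, the master regulator of the basal layer, was almost absent from luminal libraries. It held 59, 13 and 46 counts in MMTVRANK luminal libraries, or 4.02, 0.831 and 2.69 CPM, and 4, 17 and 15 counts in WT luminal libraries, or 0.299, 1.21 and 0.953 CPM. In basal libraries it stood at 704, 471 and 555 CPM in MMTVRANK and 497, 548 and 350.0 CPM in WT. The log2 fold change, luminal minus basal, was −7.84 (SE 0.55, adjusted p 1.93e-06) in MMTVRANK and −9.12 (SE 0.60, adjusted p 1.39e-06) in WT cells.

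Snai2, a zinc-finger repressor that marks basal cells, was also low in luminal libraries. It held 7, 2 and 24 counts in MMTVRANK luminal and 5, 7 and 5 counts in WT luminal libraries, at most 1.41 CPM. Basal libraries stood at 128, 129.7 and 108 CPM in MMTVRANK and 68.0, 121 and 34.2 CPM in WT. The 3 MMTVRANK basal libraries lay close together, while WT basal libraries spanned 3.53 times from lowest to highest. On the log2 scale the difference was −7.45 (SE 0.66, adjusted p 9.92e-06) in MMTVRANK and −7.53 (SE 0.69, adjusted p 1.31e-05) in WT cells, and −8.63 (adjusted p 3.79e-06) in MMTVRANK without luminal replicate 3. Trp63 and Snai2 lie on 1 chromosome, at chr16:25683763-25892102 and chr16:14705852-14709385, but 10974 kb apart.

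Sox10, a neural crest factor also found in mammary progenitors, was lower in luminal cells but far from absent. It lies on the minus strand at chr15:79154908-79165240. It stood at 58.5, 87.4 and 110.0 CPM in MMTVRANK luminal and 56.4, 73.0 and 82.5 CPM in WT luminal libraries, against 281, 226 and 218 CPM in MMTVRANK basal and 286, 232 and 261 CPM in WT basal libraries. The log2 fold change was −1.5 (SE 0.23, adjusted p 0.000258) in MMTVRANK and −1.88 (SE 0.23, adjusted p 5.01e-05) in WT cells. Schwann cells and melanocytes also use Sox10, so their markers are set beside it. Their 14 markers summed to 207, 28.1 and 232 CPM in MMTVRANK basal and 858, 351 and 271 CPM in WT basal libraries. MMTVRANK basal replicate 2 held the lowest marker sum of the basal libraries and 226 CPM of Sox10. WT basal replicate 1 held the highest marker sum and 286 CPM of Sox10. Of the melanocyte genes, Mitf averaged 6.62 CPM in MMTVRANK basal and 8.35 CPM in WT basal cells, and Pmel 0.724 CPM in MMTVRANK basal and 1.48 CPM in WT basal cells. Tyrp1 reached 0.548 CPM in MMTVRANK basal and 2.17 CPM in WT basal libraries, while Tyr, Mlana and Dct were each under 0.3 CPM on average in both. The part of these cells in the Sox10 level was not tested.

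**Figure D2:**
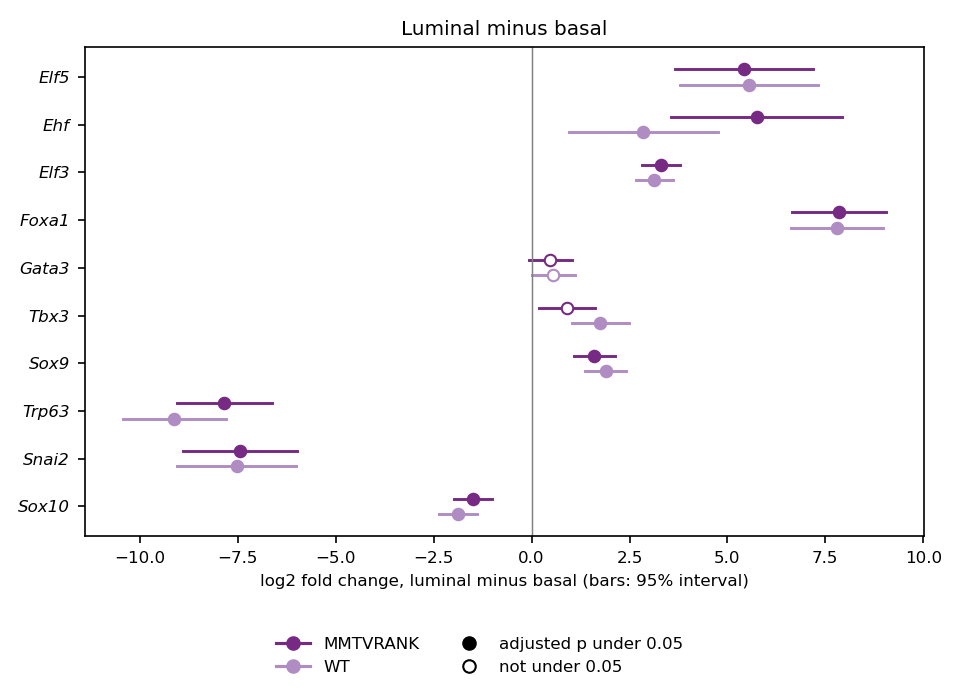
Log2 fold change, luminal minus basal, of each factor in MMTVRANK (dark) and WT (light) cells, with 95% intervals; filled points have an adjusted p under 0.05. Foxa1 stands at 7.85 and 7.80 and Trp63 at −7.84 and −9.12, while both Gata3 points are open.

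The order of the factors within a group was read per length, as RPKM (CPM divided by the summed exon length in kilobases). Sox9 had the highest mean in every group, with 251 ± 48.3 RPKM in MMTVRANK luminal, 367 ± 29.6 in WT luminal, 82.5 ± 4.86 in MMTVRANK basal and 98.7 ± 37.1 in WT basal cells (SD, n = 3 each). Its lead over Sox10 was not held in each basal library. In WT basal cells it rested on the library labelled replicate 2, with 141.5 RPKM of Sox9 against 76.2 RPKM of Sox10, whereas Sox10 was higher in replicates 1 (93.7 against 78.4 RPKM) and 3 (85.7 against 76.3 RPKM). Sox10 was also higher in MMTVRANK basal replicate 1 (92.3 against 77.7 RPKM). In luminal cells Foxa1 came next, at 108 ± 51.1 RPKM in MMTVRANK and 131 ± 52.2 RPKM in WT. Foxa1, Gata3, Ehf and Elf3 each overlapped the next from library to library in MMTVRANK luminal cells, the last 3 at 67.5, 67.2 and 59.0 RPKM. In WT luminal cells Elf3 and Gata3 stood together at 86.1 and 81.1 RPKM, and Ehf at 28.9 RPKM overlapped Tbx3 at 29.3 and Sox10 at 23.1 RPKM. In MMTVRANK basal cells Sox9, Sox10 at 79.3, Trp63 at 68.7, Snai2 at 60.2 and Gata3 at 48.4 RPKM each overlapped the next. In WT basal cells the order was Sox9, Sox10 at 85.2, Trp63 at 55.4, Gata3 at 55.2 and Snai2 at 36.8 RPKM. Sox10 did not overlap Trp63 there, and the other neighbours of this run did overlap.

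**Figure D3:**
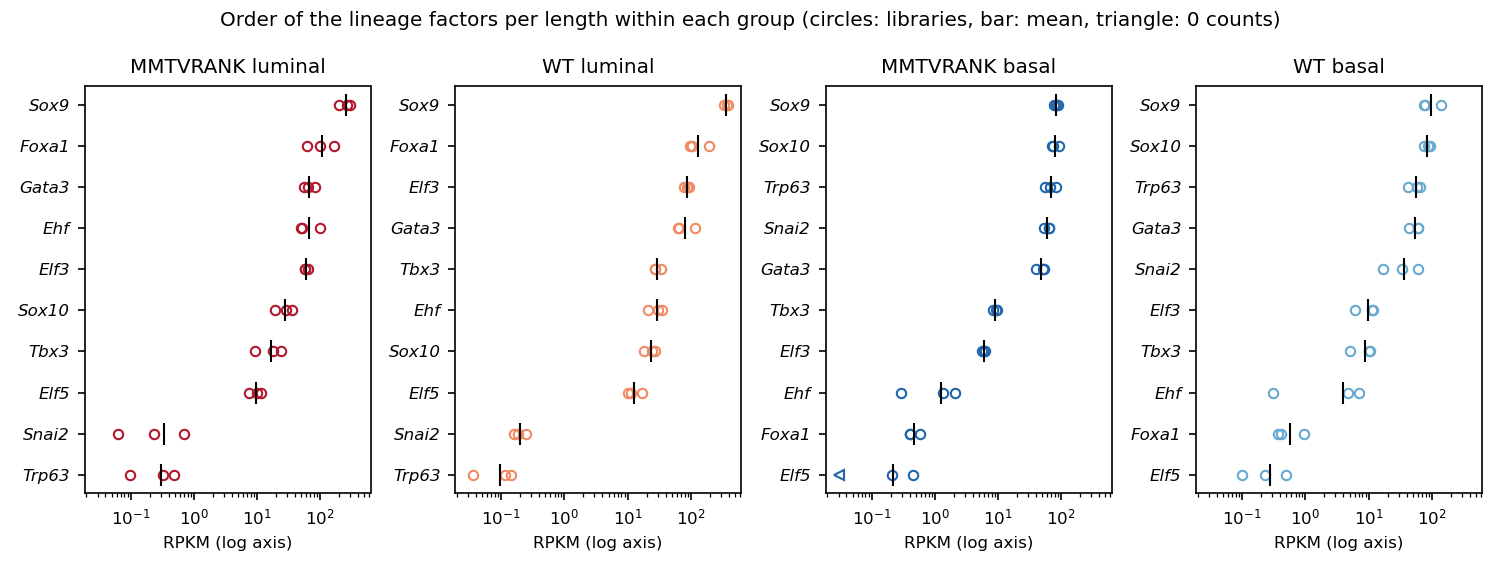
RPKM (log axis) of the 10 factors within each group, ordered by mean; circles are libraries, the bar is their mean and the triangle a library with 0 counts. Sox9 is at the top of each panel, and Snai2 and Trp63 are at the foot of the luminal panels.

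Between the genotypes, no factor passed the test in either population. Low counts limit the values of Trp63 and Snai2 in luminal cells and of Elf5 and Foxa1 in basal cells. Snai2 met the filter on low counts only through its basal libraries. In luminal cells edgeR called 0 of the 10 factors, 4 had an unadjusted p under 0.05 (12% of all tested genes did), and DESeq2 and limma-voom also called 0; of all tested genes 0.252% were called. The libraries of the genotypes did not overlap for 4 of the 10 factors, with Ehf above and Sox9, Elf3 and Tbx3 below WT in all 3 MMTVRANK libraries, where 16.9% of all tested genes showed no overlap. Without the filter on low counts edgeR called Trp63, Ehf and Tbx3 in luminal cells, where that setting called 3.58% of all genes tested, and Ehf in basal cells, where it called 0.924%. The median log2 fold change, MMTVRANK minus WT, was −0.27 over the 10 factors and 0.03 over all tested genes.

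The largest luminal values were those of Trp63 and of Ehf, which had 1.22 on the log2 scale (95% interval −0.56 to 3.00, SE 0.81, adjusted p 0.654). The mean levels were 375 ± 159.6 CPM in MMTVRANK luminal and 161 ± 38.9 CPM in WT luminal cells (SD, n = 3 each). MMTVRANK luminal replicate 3 held the highest Ehf, and without it the value was 0.77. That library also held the lowest Sox9, Tbx3, Foxa1 and Gata3 of the MMTVRANK luminal libraries, the highest Snai2, and the high leukocyte marker sum given above; the part of those cells in these values was not tested.

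Sox9, Elf3 and Tbx3 had log2 fold changes of −0.55 (SE 0.23, adjusted p 0.369), −0.54 (SE 0.20, adjusted p 0.285) and −0.80 (SE 0.32, adjusted p 0.342) in luminal cells. Without MMTVRANK luminal replicate 3 they were −0.44, −0.55 and −0.55. Elf3 averaged 131 ± 7.63 CPM in MMTVRANK luminal and 191 ± 16.7 CPM in WT luminal cells (SD, n = 3 each), the least variable pair of the 3. Elf5 at −0.40 (adjusted p 0.915), Foxa1 at −0.27 (adjusted p 0.901), Gata3 at −0.26 (adjusted p 0.816) and Sox10 at 0.27 (adjusted p 0.756) overlapped between the genotypes. Without WT luminal replicate 1, which held the highest Foxa1 and Gata3 of all libraries, Foxa1 was 0.11 and Gata3 0.09.

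In luminal cells the log2 change of Trp63 was 1.59 (SE 0.54, adjusted p 0.247), and the genotypes overlapped. Its highest libraries, MMTVRANK replicates 1 and 3, held 404 and 874 CPM of summed basal markers, and replicate 2, with the lowest Trp63 of that group, held 520 CPM. The WT luminal libraries held 302, 583 and 517 CPM. Itga6 alone gave 311 to 387 CPM of the sum in MMTVRANK luminal and 246 to 509 CPM in WT luminal libraries. Myh11 averaged 48.6 CPM in MMTVRANK luminal and 12.8 CPM in WT luminal cells, and Vim 35.9 and 6.57 CPM, with ranges that overlapped. Means were lower in MMTVRANK luminal than in WT luminal cells for Itga6 (359 against 379 CPM) and Lgr5 (10.6 against 11.1 CPM). Of the 13 basal markers 11 had positive values, MMTVRANK minus WT in luminal cells, with a median of 0.93, and 0 were called. Over all tested genes 9626 of 18236 values were positive, with a median of 0.03. The part of basal cells in the Trp63 level was not tested. Snai2 had 0.78 (SE 0.79, adjusted p 0.832), and −0.43 without MMTVRANK luminal replicate 3. It held at most 24 counts in a luminal library and was not tested with the luminal groups fitted alone. Summed proliferation markers, 20 genes, were 2550, 1116 and 2360 CPM in MMTVRANK luminal and 309, 550 and 189 CPM in WT luminal libraries, and summed luminal markers were 13126, 11980 and 8290 CPM in MMTVRANK and 21871, 17246 and 14530 CPM in WT; their part in the factor levels was not tested.

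**Figure D4:**
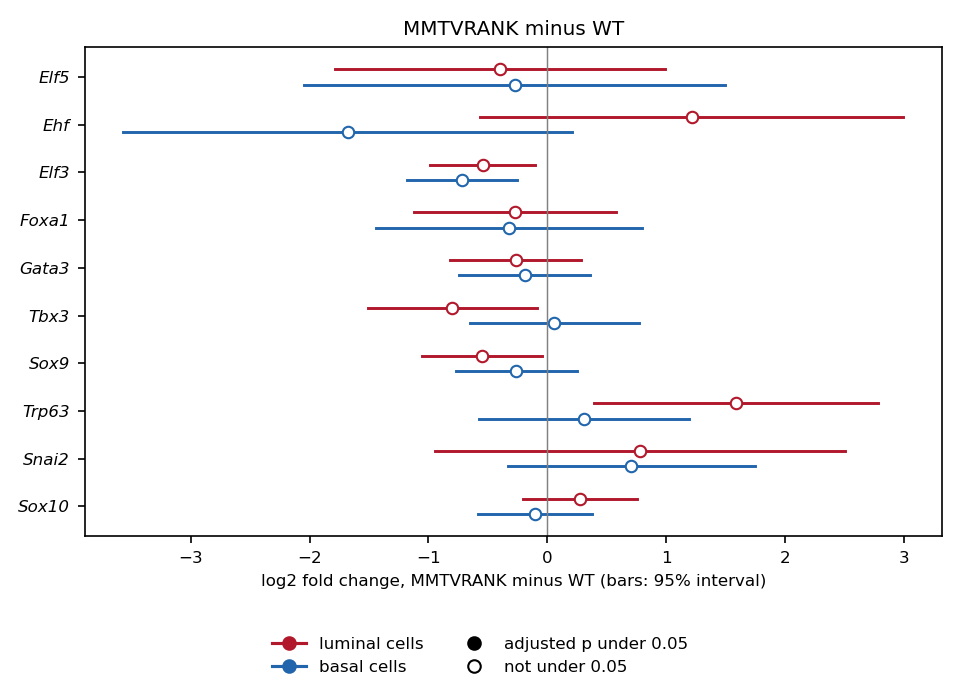
Log2 fold change, MMTVRANK minus WT, of each factor in luminal (red) and basal (blue) cells, with 95% intervals; open points have an adjusted p of 0.05 or more, which holds for all 20 points. Ehf stands at 1.22 in luminal and −1.68 in basal cells.

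In basal cells edgeR called 0 factors, 1 had an unadjusted p under 0.05 (5.41% of all tested genes did) and DESeq2 and limma-voom also called 0, where 0.00548% of all tested genes were called. No factor had genotypes without overlap, against 11.1% of all tested genes. The median was −0.22 over the 10 factors and 0.0041 over all tested genes.

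Elf3 had the lowest p there (−0.72 on the log2 scale, SE 0.21, adjusted p 0.688). Its 3 MMTVRANK basal libraries lay within 12.4 to 13.9 CPM, and the library labelled WT basal replicate 2, at 13.6 CPM, lay among them. Without that library the value was −0.96 with an adjusted p of 0.0707, the lowest over the alternatives tried, which ran up to 1.00. Snai2 showed the same placing, with 121 CPM in the library labelled WT replicate 2 inside the MMTVRANK range of 108 to 129.7 CPM, and its value was 0.71 (SE 0.47, adjusted p 0.977) with and 1.26 (adjusted p 0.559) without that library. The Snai2 value was 0.66 without WT basal replicate 1, which held the high fibroblast marker sum, and 0.80 without MMTVRANK basal replicate 3, which held the high leukocyte marker sum. Elf5 was 0.48 without WT basal replicate 1, of opposite sign to its value with it. The library labelled WT basal replicate 2 had 158 CPM of Tnfrsf11a and 1386 CPM of summed proliferation markers. MMTVRANK basal libraries held 725 to 1415 CPM of the proliferation markers and the other WT basal libraries 507 and 133 CPM. The part of either level in these values was not tested.

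The library labelled WT basal replicate 2 did not lie with MMTVRANK for every factor. For Sox9, at 585 CPM, it stood above all other basal libraries, and for Tbx3, at 33.5 CPM, below all of them. Ehf in basal cells had −1.68 (SE 0.86, adjusted p 0.922), and −1.01 without that library. The values without it were of opposite sign for Foxa1 (0.26), Sox9 (0.10) and Tbx3 (−0.20), against −0.32, −0.26 and 0.06 with it. Trp63 had 0.31 (adjusted p 1.00), Gata3 −0.19, Sox10 −0.10 and Elf5 −0.27, all with overlapping libraries.

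The difference between the genotypes in the luminal minus basal effect was called by edgeR for 0 of the 10 factors, with 1 at an unadjusted p under 0.05 (7.73% of all tested genes) and 0 by DESeq2 or limma-voom, where 0.00548% of all tested genes were called. Without the filter on low counts edgeR called Trp63 and Ehf, where that setting called 2.05% of all genes tested. Ehf had the largest difference, 2.89 on the log2 scale (SE 1.18, 95% interval 0.30 to 5.49, unadjusted p 0.0321, adjusted p 0.607). Trp63 had 1.28 (SE 0.68, adjusted p 0.701) and Tbx3 −0.86 (SE 0.46, adjusted p 0.701). The other 7 lay between −0.29 and 0.38. These intervals do not show that the lineage split was alike in both genotypes, since that of Elf5 ran from −2.41 to 2.16.

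Known targets of the factors were read from lists. For this and the lists below, 16.1% of all tested genes were higher and 17% lower in luminal cells in MMTVRANK. In WT 18% were higher and 20% lower. Between the genotypes 0.252% of all tested genes were called in luminal cells and 0.00548% in basal cells. Of 24 p63 targets 20 were lower in luminal cells and 1 was higher in MMTVRANK, and 20 were lower and 2 higher in WT, and the median log2 changes were −3.28 and −3.25, against 0.05 and −0.07 over all tested genes. Cdh3 and Krt14 of this list are also basal markers used to check the sort. The part of the factors in the values of these lists was not tested. Cdh3, the adhesion protein P-cadherin, averaged 4.27 ± 1.36 CPM in MMTVRANK luminal and 499 ± 48.0 CPM in MMTVRANK basal cells, with −6.86 (adjusted p 4.17e-07). Jag2, a Notch ligand, had −6.74 in MMTVRANK (adjusted p 1.12e-06) and −7.61 in WT cells (adjusted p 8.61e-07). Between the genotypes 0 of the 24 passed in luminal cells and 0 in basal cells.

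Of 15 hormone-sensing targets of Foxa1 and Gata3, 13 were higher in luminal cells in MMTVRANK and 14 in WT, and 0 were lower, with medians of 5.18 and 5.34. Prom1, on this list, is also a luminal marker used to check the sort. Prlr, the prolactin receptor, had 7.54 in MMTVRANK (SE 0.69, adjusted p 1.33e-05) and 7.40 in WT cells (SE 0.69, adjusted p 1.46e-05). Between the genotypes in luminal cells 0 of the 15 passed. Their values were negative for 12, with a median of −0.91. Over all tested genes 9626 of 18236 values were positive, with a median of 0.03. Tph1, which makes serotonin, averaged 57.4 ± 24.7 CPM in MMTVRANK luminal and 459.6 ± 123 CPM in WT luminal cells (log2 fold change −3.0, SE 0.64, adjusted p 0.0850). Pgr, the progesterone receptor, averaged 236 ± 154 CPM in MMTVRANK luminal and 598 ± 227 CPM in WT luminal cells (−1.34, SE 0.51, adjusted p 0.302).

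Of the milk genes driven by Elf5 and Stat5, 9 of 10 were tested. In luminal cells 3 fell in MMTVRANK and 0 rose, and all 9 values were negative, with a median of −1.83. Elf5 itself had −0.40 there (SE 0.63, adjusted p 0.915), with libraries that overlapped between the genotypes. Its value stayed negative over the 19 alternatives, from −0.58 to −0.21. The part of Elf5 in the milk gene values was not tested. Lalba, the milk protein alpha-lactalbumin, averaged 0.607 ± 0.258 CPM in MMTVRANK luminal and 43.5 ± 18.2 CPM in WT luminal cells (−6.14, SE 0.71, adjusted p 0.00921). Csn3, the kappa-casein gene, averaged 20.4 ± 13.2 CPM in MMTVRANK luminal and 526 ± 292 CPM in WT luminal cells (−4.69, SE 0.60, adjusted p 0.0286). Btn1a1, a milk fat globule protein, had −3.37 (SE 0.52, adjusted p 0.0387). Luminal minus basal, 5 of the 9 were higher and 2 lower in MMTVRANK, and 7 were higher and 0 lower in WT.

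Among 24 other luminal regulators, 12 were higher and 7 lower in luminal cells in MMTVRANK, and 11 were higher and 5 lower in WT, with medians of 1.08 and 0.92. Pgr and Cited1 are on this list and also on that of the hormone-sensing targets. Myb, a progenitor factor, had 5.15 in MMTVRANK (adjusted p 3.92e-06) and 5.68 in WT cells (adjusted p 2.25e-06). Tfap2c, an AP-2 factor on this list, was lower in WT luminal cells, at 32 ± 4.17 CPM against 303 ± 46.1 CPM in WT basal cells (−3.24, adjusted p 5.08e-05). Between the genotypes Hey1, a Notch target, was the 1 luminal regulator called in luminal cells, where 0.252% of all tested genes were called. It averaged 1.08 ± 0.564 CPM in MMTVRANK luminal and 19.9 ± 18.5 CPM in WT luminal cells (−4.19, SE 0.71, adjusted p 0.0430).

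Of 27 tested basal and mesenchymal regulators, 3 were higher and 15 lower in luminal cells in MMTVRANK, and 2 were higher and 17 lower in WT, with medians of −1.46 and −2.88. Id4, an inhibitor of helix-loop-helix factors, had −7.98 in MMTVRANK (adjusted p 2.79e-06) and −8.34 in WT cells (adjusted p 2.84e-06). Between the genotypes 0 of the 27 passed in either population. In luminal cells 20 of their 27 values were positive, with a median of 0.41, against 9626 of 18236 and 0.03 over all tested genes. Tcf7l1 had the lowest p there (1.76, SE 0.37, adjusted p 0.0795).

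The closest relatives of the factors were mostly faint, and 13 of 23 passed the filter. Snai1, among them, is also on the list of basal and mesenchymal regulators. Tbx2, the T-box gene nearest to Tbx3 in sequence, had the opposite side, with 0.617 ± 0.387 CPM in MMTVRANK luminal and 48.1 ± 8.71 CPM in MMTVRANK basal cells (−6.25, SE 0.50, adjusted p 2.43e-06), and −8.43 in WT cells (adjusted p 1.15e-06). Trp73, the sister of Trp63, held 0 counts over the 3 MMTVRANK luminal libraries, which allows up to 3, and 3 counts over the WT luminal ones, against 424 counts in MMTVRANK basal and 380 in WT basal libraries. Elf1, a broadly expressed ETS factor, stood at 35.5 RPKM in MMTVRANK luminal, 46.4 in WT luminal, 19.8 in MMTVRANK basal and 18.5 in WT basal cells. Its luminal minus basal change was 0.85 (adjusted p 0.00617) in MMTVRANK and 1.33 (adjusted p 0.000291) in WT cells.

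For each factor the 2 most similar genes were sought among 11119 genes by Pearson's r of log2 CPM over the 12 libraries. The 2 populations set most of these values, so they are given as a description. Foxa1 was nearest to Rassf6 (r = 0.995) and Cxcl15 (0.994), Elf5 to Syne4 and Cldn3 (0.988 and 0.987), Elf3 to Unc13b and Ptprf (0.997 and 0.994) and Ehf to Barx2 and Marveld2 (both 0.972). Trp63 was nearest to Col18a1 (0.998) and Spon2 (0.996), Snai2 to Vsnl1 and Spock3 (both 0.998), Sox10 to Cdr2l and Amotl1 (0.991 and 0.989) and Sox9 to Diaph1 and Myh14 (both 0.988). Tbx3 was nearest to Vps37a and Flot1 (0.974 and 0.972) and Gata3 to Rab5c and Sdf4 (0.933 and 0.930). Barx2, a homeobox factor, averaged 60.4 ± 33.0 CPM in MMTVRANK luminal, 26.3 ± 13.0 in WT luminal, 1.43 ± 0.655 in MMTVRANK basal and 5.31 ± 5.02 CPM in WT basal cells, the same order of group means as Ehf.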

How the data were processed

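Mammary cells were sorted alive by CD24 and CD49f, and libraries of their RNA were made with a stranded low-input total RNA kit (SMARTer Pico), per the labels' protocols. STAR 2.6.1b, Subread 1.5 and build GRCm38.p6 are named in the submitters' processing notes. Raw read counts per gene symbol, as deposited, were made by the authors with featureCounts 1.5.2 on GENCODE M17 with no strand option set, per the file headers. The deposited table's summed exon length was used for RPKM.

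Genes were kept by filterByExpr of edgeR 4.0.16 (count minimum 10), normalised by TMM and fitted in 1 robust quasi-likelihood model over 12 libraries in 4 groups by title (R 4.3.3), with Benjamini-Hochberg adjustment over all genes tested and a threshold of 0.05. Each SE was taken from the log2 change and the F statistic. The members and gene lists were chosen with earlier results of these data known. Named genes were the 10 members, Tnfrsf11a, at most 4 genes per list and comparison by smallest p, and the 2 genes most correlated with each member (average log2 CPM of 2 or more). The fit was tested on simulated counts. Alternatives were DESeq2 1.42.0, its size factors, limma-voom 3.58.1, no filter, a replicate block, the compared groups alone, leaving out both libraries labelled WT replicate 2, each library in turn, and CPM on the total count. Among the 66 pairs of libraries none was a duplicate (lowest chi-square per degree of freedom 26.6). Floors (3 counts) cover counting error only.

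Groups share replicate numbers, whose meaning the labels leave out. Over 10082 genes, deviations of same-numbered libraries from their group means correlated at 0.542, 0.108 and 0.381 between luminal genotypes. Between populations the values were 0.285, 0.176 and 0.198 in MMTVRANK and 0.289, 0.175 and 0.363 in WT. Between basal genotypes they were 0.424, −0.0667 and 0.113. Libraries of unlike number were not compared, so these values do not settle whether the libraries are paired. The fit reported held no replicate block, and the calls of Tbx3 and Gata3 that changed with it are given above.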

Additional observations from a re-analysis of the deposited data

How the results depend on the processing

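Of 939 recomputed values of the 10 factors over 19 alternatives, 890 kept their direction and side of the threshold, 13 passed it newly, 2 lost it (Ehf in WT, luminal minus basal) and 34 changed sign, all of them among values not called. Every other lineage call held under each alternative that could be run. Without the filter on low counts, 3 factors were called between luminal genotypes (Trp63, Ehf and Tbx3), 1 between basal genotypes (Ehf) and 2 for the difference of effects (Trp63 and Ehf); the cause was not tested. With the replicate block 0 factors were called between luminal genotypes, and the block changed no call of a factor other than those of Tbx3 and Gata3 given above.

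Genes called between luminal genotypes, 46 in the fit reported, were 1353 with no filter, 723 by DESeq2, 29 by limma-voom, 103 with the replicate block, 7 with the compared groups alone and 81 without both WT libraries numbered 2. The corresponding numbers between basal genotypes, 1 in the fit reported, were 349, 69, 0, 1, 0 and 4, and for the difference of effects 776, 126, 0 and 0, with 3 without both WT libraries numbered 2. Leaving out single libraries gave 3 (without MMTVRANK basal replicate 2) to 93 (without WT basal replicate 3), 0 to 8 and 0 to 7.

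Without both WT libraries numbered 2, the values that changed sign were 0.26 for Foxa1, 0.10 for Sox9 and −0.20 for Tbx3 between basal genotypes, and 0.20 for Elf5, −0.67 for Foxa1 and −0.28 for Snai2 in the difference of effects. By limma-voom the last 3 were 0.90, −0.0964 and −0.63. Over single libraries left out, the ranges that crossed 0 were −0.50 to 0.086 for Gata3, −0.75 to 0.11 for Foxa1 and −0.43 to 1.22 for Snai2 between luminal genotypes. Between basal genotypes they were −1.30 to 0.48 for Elf5, −0.55 to 0.26 for Foxa1, −0.41 to 0.10 for Sox9 and −0.20 to 0.24 for Tbx3. In the difference of effects they were −0.87 to 0.90 for Elf5, −0.27 to 0.27 for Gata3, −0.53 to 0.43 for Foxa1 and −1.11 to 0.54 for Snai2. With CPM on the total count, 35 of 40 group means moved by less than 1 SD. Low counts limit Trp63 and Snai2 in luminal and Elf5 and Foxa1 in basal libraries.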
